A study of Mus musculus with 6 samples.

Results

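*Arc*, *Nr4a3*, *Npas4*, *Homer1*, *Nptx2*, *Dusp1*, *Dusp6*, *Klf10*, *Apold1* and *Sik1*, genes that neurons or vessel cells switch on after activity, were read from arrays of mouse cerebral cortex. They were chosen by name as activity-induced genes, with the group means of these same arrays already known, so their differences between groups are a description and carry no test. All 10 were found among the 22527 gene symbols on the array, at 19 of its 45077 probe sets, a probe set being a group of short probes that reports on a transcript. Cortical RNA came from 6 male mice labelled as 16 weeks old, 2 in each of 3 groups. SAMR1, the senescence-resistant strain that served as normally aging control, and SAMP8 control, the senescence-accelerated strain, were given water by mouth. STEE-fed SAMP8 received sugarcane top ethanolic extract at 20 mg/kg. Dosing began after a period of acclimatization, lasted 30 days and went on through 8 days of behavioral tests. The brains were taken the day after the last test, when the mice were older than 16 weeks. SAMP8 is an inbred strain and not a transgenic model, the mice of every group were housed singly, drank BrdU in their water for part of the dosing period and swam in the maze, and no STEE-fed SAMR1 group was measured.

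When a neuron is strongly active, calcium entry and kinase cascades switch on a set of genes within minutes, without new protein being made first. Some of these early genes encode transcription factors. Others, called effectors, act directly at synapses or feed back on the signal: they move receptors, reshape scaffolds, or remove phosphate from the kinases that started the response. The transcription factor CREB, which binds the cAMP response element (CRE), and the serum response factor SRF are among the best known switches of these genes, which are widely used as markers of recent activity in the cortex.

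The stretch upstream of the start site was read from RefSeq sequence of build GRCm38.p6 to show which of these genes carry the letters that CREB recognises. Windows were found for *Nr4a3*, *Apold1*, *Dusp6*, *Homer1* (2 windows), *Dusp1* and *Npas4*. *Arc*, *Nptx2*, *Klf10* and *Sik1* had none. The 250 bases before each start were searched on both strands for TGACG, the core of a CRE, for the full palindrome TGACGTCA, which holds the core on each strand, for TATAAA and for the CArG box of SRF. The core was found in 5 of the 7 windows, and in 17.8% of the 32851 windows of all genes. The sequences below run 5′ to 3′ on the gene's strand, with the core, read on either strand, in capitals.
*Dusp1*, chr17:26508473-26508722, minus strand: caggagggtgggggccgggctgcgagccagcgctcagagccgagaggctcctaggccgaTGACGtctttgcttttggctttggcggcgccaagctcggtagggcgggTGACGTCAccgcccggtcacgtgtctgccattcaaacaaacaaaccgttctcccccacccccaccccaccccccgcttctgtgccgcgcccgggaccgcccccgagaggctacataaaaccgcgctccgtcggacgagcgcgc
*Homer1*, chr13:93303507-93303756, plus strand: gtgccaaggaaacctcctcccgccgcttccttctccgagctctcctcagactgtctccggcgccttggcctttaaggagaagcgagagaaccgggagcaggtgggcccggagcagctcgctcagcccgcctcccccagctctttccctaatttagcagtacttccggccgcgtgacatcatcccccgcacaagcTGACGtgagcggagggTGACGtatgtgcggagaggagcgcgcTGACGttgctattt
*Apold1*, chr6:134981751-134982000, plus strand: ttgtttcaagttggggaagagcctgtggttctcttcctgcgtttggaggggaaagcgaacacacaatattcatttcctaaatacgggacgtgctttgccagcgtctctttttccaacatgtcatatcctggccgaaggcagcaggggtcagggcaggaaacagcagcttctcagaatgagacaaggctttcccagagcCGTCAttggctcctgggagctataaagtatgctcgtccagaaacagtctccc
*Nr4a3*, chr4:48045067-48045096, plus strand: aggagggTGACGtagcgtcccatgtCGTCA
*Npas4*, chr19:4990136-4990165, minus strand: ccctctcccgttcgaCGTCAcgggaTGACG

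*Dusp1* held 3 cores, and the full CRE, which 1.55% of all windows have, accounted for 2 of them. *Homer1* held 3 cores at positions -56, -40 and -14 from its first listed start, and 0 in the window of its second start. *Nr4a3* held 4 cores and *Npas4* held 2. At least 3 cores were present in 0.69% of all windows and at least 4 in 0.14%. For *Nr4a3* and *Npas4* another transcript of the gene starts further upstream, so 30 bases with 2 of the cores are shown. *Apold1* held 1 core and 1 TATAAA, a sequence found in 12.4% of all windows. *Dusp6* held none of these letters in its window, and no CArG box, found in 1.47% of all windows, was present in any of the 7. These matches are letters and not measured binding sites. Genes with several cores were found both among those with lower signal in STEE-fed SAMP8 (*Dusp1*, *Nr4a3*) and among those that differed by no more than 0.10 (*Homer1*, *Npas4*), as given next.

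The values are the authors' mean log2 signal of a group, and a difference of 1 on this scale is a 2-fold change. No value of a single mouse was used, so there is no standard deviation, no test and no statement on the spread between mice for any difference. A gene with several probe sets was read from the one with the highest mean signal, and a difference counted as past the fold at 0.5 on the log2 scale, which is 1.41-fold. Over all 45077 probe sets, the central 98% of the differences lay from -0.41 to 0.44 for SAMP8 control minus SAMR1, from -0.26 to 0.27 for STEE-fed SAMP8 minus SAMP8 control and from -0.41 to 0.48 for STEE-fed SAMP8 minus SAMR1. The median signal over the array was 4.16 for SAMR1 and 4.15 for each SAMP8 group. The SAMP8 control mean enters both the first and the second comparison, so a low or high control value moves them in opposite directions.

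Between STEE-fed SAMP8 and SAMP8 control, 4 of the 10 genes were lower by at least 0.5 and 0 were higher. Among all 22527 genes read in the same way, 0.151% were lower and 0.0932% higher by this fold. As the genes were chosen with this comparison known, nothing is read from that contrast. The 4 genes were *Arc*, *Nr4a3*, *Klf10* and *Apold1*, and *Dusp1*, *Dusp6* and *Sik1* were lower by 0.33 to 0.48. *Npas4*, *Homer1* and *Nptx2* differed by -0.06, 0.10 and 0.07. The median of the 10 was -0.45, and the median of all genes was 0.00. In bulk cortex, fewer cells of a type and less RNA per cell cannot be told apart.

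**Figure D1:**
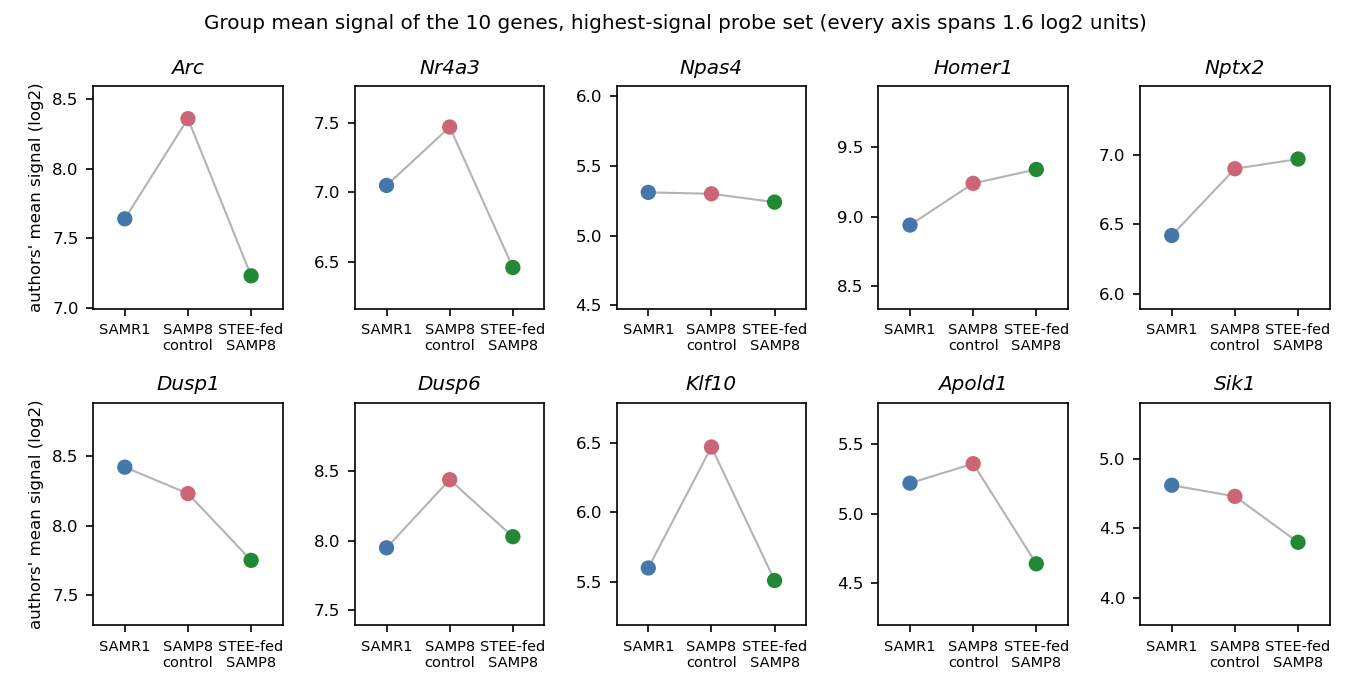
Authors' mean log2 signal (vertical axis, each spanning 1.6 log2 units) of the 10 genes in SAMR1, SAMP8 control and STEE-fed SAMP8, at the probe set with the highest signal. Each point is the mean of 2 mice as deposited, without an error bar because no value per mouse was used, and grey lines only guide the eye. *Arc*, *Nr4a3*, *Klf10*, *Dusp6* and *Apold1* are highest in SAMP8 control, *Homer1* and *Nptx2* are higher in both SAMP8 groups than in SAMR1, and *Npas4* stays between 5.24 and 5.31.

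*Arc* encodes the activity-regulated cytoskeleton-associated protein, which promotes the removal of AMPA receptors from synapses and forms capsid-like particles that carry RNA. Its mean log2 signal was 7.64 in SAMR1, 8.36 in SAMP8 control and 7.23 with STEE. SAMP8 control was thus the highest group and STEE-fed SAMP8 the lowest. The difference with STEE was -1.13, a 2.19-fold lower signal, and only 4 of all 45077 probe sets had a lower value. SAMP8 control exceeded SAMR1 by 0.72, and STEE-fed SAMP8 differed from SAMR1 by -0.41. *Arc* had a single probe set, so this value could not be compared with another one of the gene. A list of olfactory bulb markers, described further on, had the same order of groups in its summed signal as *Arc*, *Nr4a3*, *Klf10* and *Apold1*, at 730, 871 and 686. The list was drawn up after *Eomes*, *Cdhr1*, *Calb2* and *Zic1* had been seen among the lowest values with STEE, so nothing is read from its low sum there. Its members differed in order: 6 of the 8 were highest in SAMP8 control, while *Calb2* and *Th* were highest in SAMR1, and most of the strain difference in the sum came from *Reln*. Only *Eomes*, *Zic1* and *Doc2g* had the full order of the sum, as *Cdhr1*, *Tbx21* and *Reln* were lowest in SAMR1. The summed signal of 20 early transcription factors, 3957, 5087 and 3914, had the order of the bulb sum too. The part of the bulb markers in the values of *Arc*, *Nr4a3*, *Klf10* and *Apold1* was not tested.

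*Homer1* encodes a scaffold of the postsynaptic density that ties group I metabotropic glutamate receptors to Shank proteins and to calcium stores, and its short activity-induced form breaks these ties. Its mean log2 signal at the probe set with the highest signal was 8.94 in SAMR1, 9.24 in SAMP8 control and 9.34 with STEE. SAMR1 was the lowest group, and the SAMP8 groups lay within 0.10 of each other. At the 1 probe set that the array assigns to both C330006P03Rik and *Homer1*, the means were 7.58, 9.39 and 9.30. SAMP8 control exceeded SAMR1 there by 1.81, or 3.51-fold, the 18th highest of all probe sets. At the other 5 probe sets the difference was 0.25 to 0.47, so all 6 exceeded SAMR1 in SAMP8 control, with a spread from 0.25 to 1.81. With STEE the 6 probe sets differed by -0.09 to 0.23, and none of them was lower by more than 0.09. The probe sets could not be matched to the short or the long form of *Homer1* from the files, so no value is given for either.

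*Nptx2* encodes neuronal pentraxin 2, a secreted protein that gathers AMPA receptors at excitatory synapses onto interneurons. The mean log2 signal of the gene was 6.42 in SAMR1, 6.90 in SAMP8 control and 6.97 with STEE. Both SAMP8 groups lay above SAMR1, by 0.48 and 0.55, and with STEE the difference was 0.07. The second probe set, of low signal, gave 3.26, 3.44 and 3.46, the same order of groups. The summed signal of 9 striatum markers, 2317, 3592 and 3716, had its lowest to highest value likewise in the order SAMR1, SAMP8 control, STEE-fed SAMP8. *Homer1* had that order at its probe set with the highest signal, but not at every one of its probe sets. The order was not particular to striatum markers. Sums of cortical neuron markers (4658, 5014 and 5243) and endothelial markers (733, 772 and 790) had it too. So had the sums of the blood markers, synaptic partners, MAP kinases and regulators read further on. Of the striatum markers, *Ppp1r1b* and *Penk* differed with STEE by -0.03 and -0.09. The part of the striatum markers in the values of *Homer1* and *Nptx2* was not tested.

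Next are the enzymes that feed back on the signal. *Dusp1* encodes a nuclear phosphatase that removes phosphate from the stress kinases JNK and p38 and from ERK. On the log2 scale the mean signal was 8.42 in SAMR1, 8.23 in SAMP8 control and 7.75 with STEE. The order of the groups differed from that of *Arc*: SAMR1 was the highest, and STEE-fed SAMP8 was the lowest, with differences of -0.48 from SAMP8 control and -0.67 from SAMR1. *Dusp6* encodes a cytoplasmic phosphatase specific for ERK. The group means (log2 signal) were 7.95 in SAMR1, 8.44 in SAMP8 control and 8.03 with STEE. SAMR1 and STEE-fed SAMP8 differed by 0.08, and SAMP8 control lay above SAMR1 by 0.49. *Sik1* encodes a kinase that is itself induced by CREB and restrains CREB coactivators. Mean log2 signal stood at 4.81 in SAMR1, 4.73 in SAMP8 control and 4.40 with STEE. It was lower with STEE by 0.33, and its second probe set, at 2.58 to 2.64 in the 3 groups, differed by -0.02.

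Among the transcription factors, *Klf10*, a zinc finger repressor first found as a target of TGF-beta, had a mean log2 signal of 5.60 in SAMR1, 6.47 in SAMP8 control and 5.51 with STEE. SAMP8 control stood above both other groups, by 0.87 over SAMR1, while STEE-fed SAMP8 and SAMR1 differed by -0.09. The difference with STEE was -0.96, a 1.95-fold lower signal. The part of the olfactory bulb markers, given beside *Arc*, in this value was not tested. *Nr4a3* encodes an orphan nuclear receptor. Its mean log2 signal was 7.05 in SAMR1, 7.47 in SAMP8 control and 6.46 with STEE. The difference with STEE was -1.01, or 2.01-fold, and that between SAMP8 control and SAMR1 was 0.42. This rested on 1 of 3 probe sets: the others, with signals of 2.98 to 4.34 in the 3 groups, differed by -0.11 and -0.01 with STEE. *Npas4* encodes a bHLH-PAS factor that is induced by calcium entry in neurons and tunes inhibitory synapses. The mean log2 signal of the gene was 5.31 in SAMR1, 5.30 in SAMP8 control and 5.24 with STEE. At its single probe set *Npas4* was nearly level, and every difference was within the central 98% of all probe sets.

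*Apold1* encodes an apolipoprotein L domain protein that is known as an early gene of endothelial cells. On the log2 scale the mean signal was 5.22 in SAMR1, 5.36 in SAMP8 control and 4.64 with STEE. The water groups lay within 0.14 of each other, and STEE-fed SAMP8 was lower than SAMP8 control by 0.72, or 1.65-fold. As for *Klf10*, the part of the bulb markers in this value was not tested. Of the 10 endothelial marker genes read beside *Apold1*, 0 differed by at least 0.5 with STEE, and their median was 0.03, with a range from -0.22 (*Tek*) to 0.30 (*Vwf*).

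**Figure D2:**
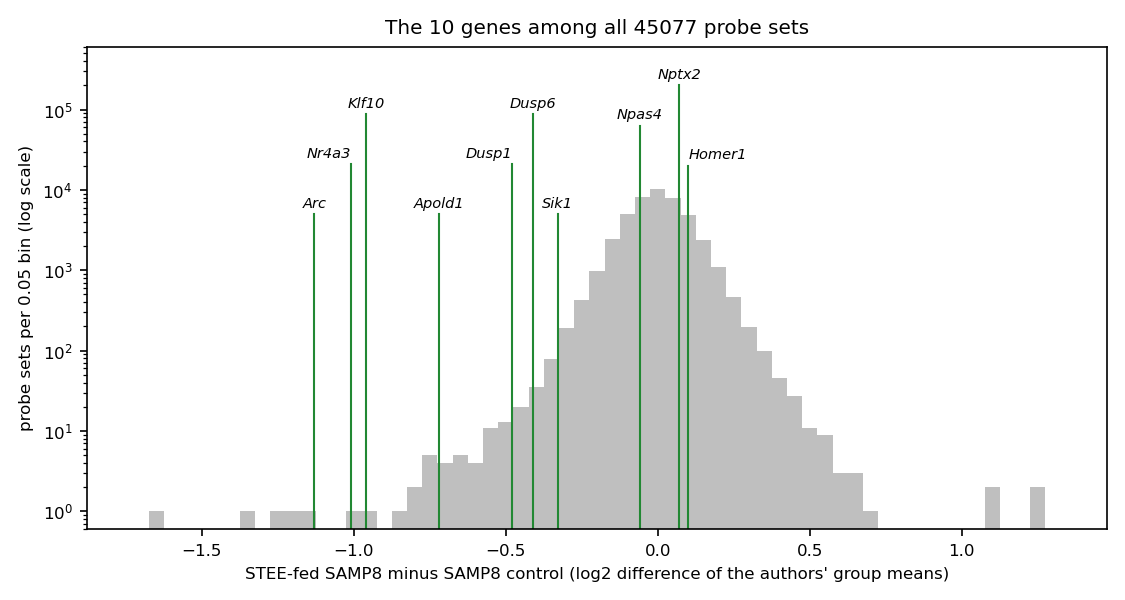
Number of probe sets (vertical axis, log scale) by the log2 difference between the authors' means of STEE-fed SAMP8 and SAMP8 control (horizontal axis, bins of 0.05), for all 45077 probe sets in grey. Green lines mark the 10 genes at their probe set with the highest signal. Of these, 7 lie at -0.33 or lower, from *Sik1* to *Arc* at -1.13, and *Npas4*, *Nptx2* and *Homer1* lie within 0.10 of 0.

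In SAMP8 control minus SAMR1, 2 of the 10 genes were higher by at least 0.5, *Klf10* and *Arc*, and 0 were lower. The shares over all genes were 1.03% higher and 0.55% lower. *Dusp6*, *Nptx2*, *Nr4a3* and *Homer1* were higher by 0.30 to 0.49, and *Dusp1* differed by -0.19, *Sik1* by -0.08 and *Npas4* by -0.01. The median of the 10 was 0.36, and the median of all genes was 0.00. In STEE-fed SAMP8 minus SAMR1, a comparison that does not use the control arrays, 3 genes were lower by at least 0.5, *Dusp1*, *Nr4a3* and *Apold1*, against 0.577% of all genes, and 1 was higher, *Nptx2*, against 1.09%. When every probe set of a gene was averaged, *Nr4a3* stood at -0.26 and *Nptx2* at 0.38, both short of the fold, and *Homer1* was past it at 0.68. That *Homer1* mean includes 1.72 at the probe set also assigned to C330006P03Rik, and the others lay at 0.24 to 0.70. *Arc* and *Sik1* each differed from SAMR1 by -0.41. *Homer1* was higher by 0.40 at the probe set with the highest signal and by 0.24 to 1.72 over its 6 probe sets. *Dusp6* and *Klf10* were within 0.09 of SAMR1. The median of the 10 was -0.25, with -0.01 for all genes.

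**Figure D3:**
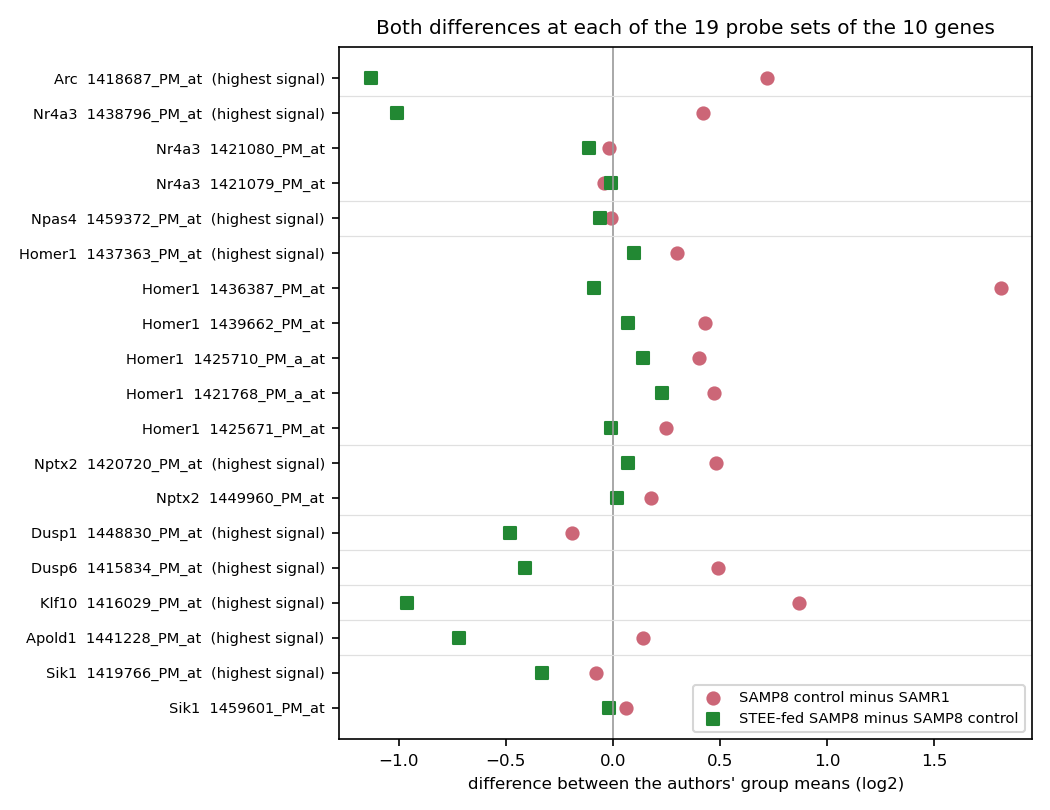
Log2 difference between the authors' group means (horizontal axis) at each of the 19 probe sets of the 10 genes (rows, with the probe set's name), for SAMP8 control minus SAMR1 (red circles) and STEE-fed SAMP8 minus SAMP8 control (green squares). All 6 *Homer1* probe sets lie above 0 in red, one of them at 1.81. The difference of *Nr4a3* with STEE, -1.01, is seen at 1 of its 3 probe sets.

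The closest relatives of the 10 genes were read in the same way. Of 24 such genes, 1 was lower by at least 0.5 with STEE, *Nr4a1*, with means of 8.77 in SAMR1, 8.91 in SAMP8 control and 8.34 with STEE, which is -0.57 with STEE. The third member of that receptor family, *Nr4a2*, differed by -0.09. *Nr4a3* itself stood at -1.01. Of the other MAP kinase phosphatases, *Dusp5* differed by -0.34 with STEE, *Dusp14* by -0.26 and *Dusp4* by -0.10. *Dusp7* and *Dusp9*, which like *Dusp6* act on ERK in the cytoplasm, differed by 0.05 and 0.01, and *Dusp2*, *Dusp8*, *Dusp10* and *Dusp16* by -0.03 to 0.13. *Dusp14* was also the 1 relative higher by at least 0.5 in SAMP8 control than in SAMR1, by 0.64. *Klf11*, the nearest relative of *Klf10*, differed by -0.13 between the strains and 0.03 with STEE. *Homer2* and *Homer3* differed from SAMR1 by -0.02 and -0.10 in SAMP8 control, *Nptx1* and *Nptxr* by 0.10 and -0.04, and *Npas1*, *Npas2* and *Npas3* by -0.01, 0.08 and -0.20. *Sik2* and *Sik3* differed with STEE by -0.12 and -0.02. The median of the 24 was 0.06 between the strains and 0.00 with STEE.

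Among 26 other activity-induced effectors, 1 was lower by at least 0.5 with STEE, *Gadd45b*, a stress-induced regulator of DNA demethylation, by 0.76. None was higher by that fold, and the median was -0.10. Among all genes, 0.151% were lower and 0.0932% higher by that fold with STEE. *Tiparp*, *Midn*, *Dusp5* and *Per1* were lower by 0.34 to 0.48, while *Bdnf*, the neurotrophin, differed by -0.24, *Plk2* by 0.06 and *Vgf* by 0.06. In SAMP8 control minus SAMR1, 23 of the 26 lay above 0, with a median of 0.23, where the median of all genes was 0.00. *Dusp14*, *Cdkn1a* and *Ptgs2* were higher by 0.55 to 0.64, and *Cyr61* was lower by 0.54. Of all genes, 1.03% were higher and 0.55% lower by at least 0.5 in that comparison. Of 20 early transcription factors, 6 were lower by at least 0.5 with STEE, *Egr2* (-1.23), *Fos* (-1.20), *Junb* (-0.69), *Egr1*, *Egr4* and *Nr4a1* (each -0.57), and 0 were higher, with a median of -0.29. *Egr3* and *Jun* each differed by -0.03. Between the strains, 3 of the 20 were higher in SAMP8 control by at least 0.5, *Fosl2* (0.76), *Egr3* (0.61) and *Ier5* (0.51). *Klf4* was the 1 lower by that fold (-0.51), and the median was 0.135. These lists, which share *Nr4a1*, *Nr4a2*, *Dusp4*, *Dusp5* and *Dusp14* with the relatives above, were written, like the 10 genes, with earlier results of these arrays known.

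Genes for the proteins that the effectors act on, and for regulators of activity-induced genes, were read in the same way. Of 20 synaptic partners on the array, among them the glutamate receptors *Grm5* and *Gria1* to *Gria4* and the scaffold *Shank3*, 0 passed the fold in any comparison, and the differences with STEE ran from -0.10 to 0.16. Of 17 MAP kinases and feedback inhibitors, the partners of the phosphatases, 0 passed it. *Mapk3*, which encodes ERK1, differed with STEE by -0.03. The inhibitor *Spred1* exceeded its SAMR1 mean by 0.44 in SAMP8 control, the upper bound of the central 98% of all probe sets. Of 20 regulators, 0 passed it as well. *Srf* had means of 6.11 in SAMR1, 6.49 in SAMP8 control and 6.17 with STEE, and its coactivator *Mkl1* was higher with STEE by 0.34. The *Srf* difference with STEE was -0.32, and both genes lay outside the central 98% of that comparison, from -0.26 to 0.27. *Creb1* differed by 0.14 between the strains and by -0.08 with STEE.

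**Figure D4:**
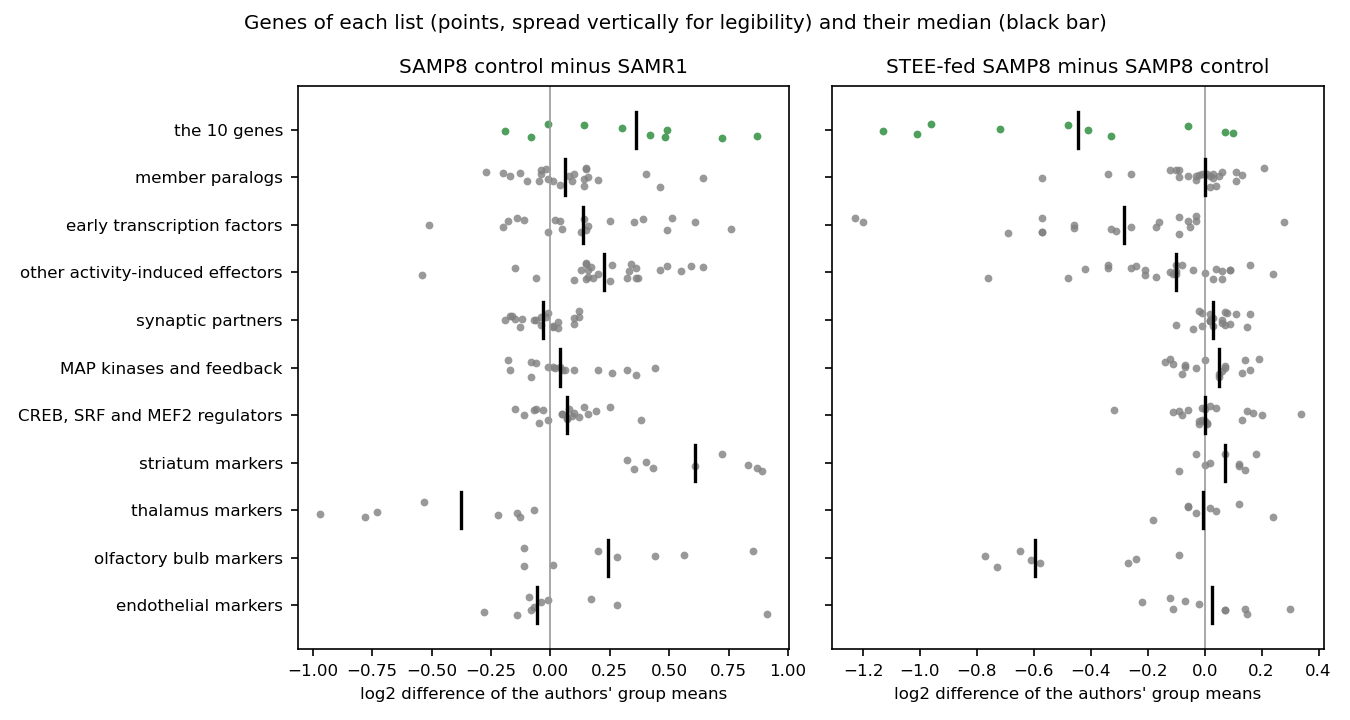
Log2 difference between the authors' group means (horizontal axes) for the genes of each list (rows), as SAMP8 control minus SAMR1 on the left and STEE-fed SAMP8 minus SAMP8 control on the right. Each point is a gene at its probe set with the highest signal, green for the 10 genes, and black bars are medians. With STEE the medians are -0.45 for the 10 genes, -0.29 for early transcription factors and -0.60 for olfactory bulb markers, and between the strains striatum markers have a median of 0.61. The olfactory bulb list was drawn up after some of its values with STEE had been seen.

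Markers of other brain regions differed between the same groups. All 9 striatum markers exceeded SAMR1 in SAMP8 control, by 0.32 to 0.89, 5 of them by at least 0.5, and their summed linear signal was 2317 in SAMR1, 3592 in SAMP8 control and 3716 with STEE. With STEE they differed by -0.09 to 0.18. All 8 thalamus markers were lower in SAMP8 control, with differences of -0.97 to -0.07, with summed signals of 493, 347 and 362. The 8 genes typical of the olfactory bulb, listed after *Eomes*, *Cdhr1*, *Calb2* and *Zic1* had been seen among the lowest values, all lay lower with STEE, with differences of -0.77 to -0.09, 5 of them by at least 0.5. Their summed signal was 730, 871 and 686. *Cdhr1*, a marker of mitral and tufted cells, was 4.82 in SAMR1, 5.67 in SAMP8 control and 4.90 with STEE. No marker is at 0 on this scale, where the lowest values of all probe sets are 1.98 to 2.07. *Tbx21*, another marker of mitral and tufted cells, was 2.70 in SAMR1, 2.98 in SAMP8 control and 2.74 with STEE. *Slc17a7*, the vesicular glutamate transporter of cortical excitatory neurons, was 7.05 in SAMR1, 7.10 in SAMP8 control and 7.19 with STEE. Of the cortical neuron markers, *Tbr1* differed by 0.16 between the strains and 0.29 with STEE, and 0 of the 10 passed the fold in any comparison. Choroid plexus markers summed to 1282 in SAMR1, 396 in SAMP8 control and 739 with STEE, a sum carried by 1 gene, *Ttr*, the thyroxine carrier of the plexus, at 10.2, 8.24 and 9.33 on the log2 scale. The other 8 plexus markers differed by -0.43 to 0.02 between the strains and by -0.09 to 0.22 with STEE. All 8 oligodendrocyte markers were lower in SAMP8 control, with a median of -0.33, and differed by -0.08 to 0.18 with STEE. Of 9 hippocampus markers, 1 was lower in SAMP8 control by at least 0.5, and 0 passed the fold with STEE. Of the other marker lists, 0 of 8 astrocyte, 0 of 8 microglia and 0 of 5 blood markers passed it in any comparison. Of the 10 endothelial markers, 1 passed it, *Abcb1a*. It exceeded SAMR1 by 0.91 in SAMP8 control and by 0.89 in STEE-fed SAMP8. The part of these regions in the differences of the 10 genes was not tested.

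The 5 genes nearest to the median pair of differences of the 10 were sought among 11861 other genes. These had a probe set of a single symbol with a mean signal of at least 4.15. The median pair was 0.36 between the strains and -0.45 with STEE, and several of the 10, such as *Homer1* and *Nptx2*, lay far from it. They were *Bhlhe40*, *Ndnf*, *Gadd45a*, *Taf4a* and *Sox4*, at distances of 0.046 to 0.060. *Bhlhe40*, a transcriptional repressor of the circadian and stress response, had means of 8.31 in SAMR1, 8.70 in SAMP8 control and 8.29 with STEE. *Gadd45a*, a growth arrest gene and relative of *Gadd45b*, had 4.12, 4.50 and 4.10. In STEE-fed SAMP8 minus SAMR1, which the search did not use, the 5 differed by -0.06 to -0.01, and the median of the 10 was -0.25. The search itself fixes SAMP8 control as the highest group in the 5.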

How the data were processed

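Cortical total RNA of 6 mice was labelled with biotin and run on Affymetrix PM array strips of the mouse genome, with 1 array for each animal. According to the submitters' processing notes and the methods, the scanned intensities were summarised with RMA in Affymetrix Expression Console and compared in Transcriptome Analysis Console. The authors deposited 2 tables of log2 group means, named bi-weight averages and rounded to 2 decimals, so a difference can be off by 0.01. RMA shrinks large differences at low and at very high signal. The tables also hold the authors' fold changes, ANOVA p-values and adjusted p-values, which were not used. The SAMP8 control means were the same in both tables. The number of arrays limits the precision, and whether 2 arrays of a group differ cannot be seen from means.

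Groups were taken from the sample titles. Symbol entries were split into single genes, and 5694 probe sets had no symbol. Of the genes listed, *Drd1* was matched as Drd1a through RefSeq and *Shank2* was not matched. Named were the 10 genes with all probe sets, genes of the lists past the fold, relatives, and the 5 genes nearest to the median pair of the 10. The 10 genes and 16 lists were chosen with earlier results of these data known, and the list of olfactory bulb genes and a few genes named for context were chosen after their values were seen. Other thresholds, probe set choices, centring and a signal filter were tried. Python 3.11.15, numpy 2.4.6, pandas 2.3.3 and matplotlib 3.10.9 were used. The steps were tested on simulated data. Some genes of the lists are not reported here by name.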

Additional observations from a re-analysis of the deposited data

How the results depend on the processing

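With a threshold of 0.3 in place of 0.5, 7 of the 10 genes were lower with STEE instead of 4, 6 exceeded SAMR1 in SAMP8 control instead of 2, and in STEE-fed SAMP8 minus SAMR1 5 were lower instead of 3 and 2 higher instead of 1. With a threshold of 1.0 these counts were 2, 0, 0 and 0. The shares of all genes were computed only at 0.5. No count at 0.3 or 1.0 given here can therefore be set against the array. With the probe set of the largest difference, 2 were higher than in SAMR1 in STEE-fed SAMP8. At 0.3, chosen after the values were seen, 10 early transcription factors and 5 other effectors were lower with STEE, against 6 and 1. Averaging all probe sets of a gene gave a median of 0.24 between the strains instead of 0.36. With that mean the difference of *Nr4a3* with STEE was -0.38 instead of -1.01, which ended its call, that of *Sik1* was -0.18 instead of -0.33, and that of *Homer1* between the strains was 0.61 instead of 0.30, past the fold. This *Homer1* value includes 1.81 at the probe set also assigned to C330006P03Rik, and the others lay at 0.25 to 0.47. In STEE-fed SAMP8 minus SAMR1 the median was -0.14 instead of -0.25. No sign changed for a gene past the fold. Leaving out probe sets whose names mark shared probes, or those of low signal, kept the highest-signal probe set of each of the 10 genes. These 2 settings therefore could not change a count and are no check on it. The probe set assigned to both C330006P03Rik and *Homer1* was not among those left out. Centring used medians of 0.00, 0.00 and -0.01 in the 3 comparisons and changed no count. No paired analysis was possible because the tables hold group means only, and for the same reason no mouse could be left out.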
